A study of Mus musculus with 24 samples.

Results

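The genes described here lie on mouse chromosome 17 between 26.08 and 32.5 Mb (GRCm38), a 6.42 Mb window inside a segment where CAST/EiJ alleles had been bred into the C57BL/6J genome. A gene was a member when its smallest transcript start in the deposited table fell in the window. The table placed 85 genes there, of which 14 were not members by rule (*Decr2*, *Phf1*, *Nudt3*, *Zfp523*, *Ppard*, *Fkbp5*, *Brpf3*, *Cdkn1a*, *Mtch1*, *Btbd9*, *Glo1*, *Rsph1*, *Pde9a* and *Cbs*). The remaining 71 genes, of 13998 in the table, were the members, and all 71 passed the minimum mean normalized count of 5. RefSeq lists 70 of them as protein coding and 1, *Gm6402*, as a transcribed pseudogene. Another 5 genes that RefSeq places in the window had no position in the table and were not members.

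RNA of the hypothalamus of 24 adult male F2 mice, 1 library per mouse, was measured by SAGE-Seq, which counts short tags next to CATG sites near the 3′ end of transcripts. The mice descended from a cross of C57BL/6J with the B6.CAST-17.1 subcongenic strain and were not recombinant across the segment. On it 12 mice were *cast/cast* and 12 were *b6/b6*, and elsewhere all 24 were *b6/b6*. The *cast/cast* mice had been selected for high and the *b6/b6* mice for low carbohydrate intake (77.8 to 106.6 against 27.4 to 41.0 kcal from the carbohydrate/protein diet over the 10 d test), and tissue was taken about 48 h after both groups returned to the choice of diets. Every CAST gene of the segment travels with every other in these mice, so the effect of 1 gene, of its neighbours and of the selected intake cannot be told apart.

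The window is gene dense and mixed in function. It holds spliceosome and ribosome genes, signalling kinases, regulators of small GTPases, Notch and Wnt pathway genes, and genes known best from germ cells, side by side. In a congenic design such genes are of interest because alleles that change the level of a nearby transcript act in cis, and the strain difference then appears as a difference in that gene's own RNA. The hypothalamus itself controls feeding and energy balance through groups of peptide neurons.

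A gene was called when the unadjusted P of limma was at most 0.01 and the mean normalized counts of the genotypes differed at least 1.5-fold. The study used the same thresholds, but with the P of DESeq. By the limma measure 11 of the 71 genes (15.5%) differed between genotypes, against 0.713% of the 13320 genes outside the CAST segment. Of these, 8 were lower in *cast/cast* mice, against 0.458% of genes outside (*Kifc5b*, *Lemd2*, *Uhrf1bp1*, *Ppil1*, *Fgd2*, *Tbc1d22b*, *Umodl1* and *Sik1*) and 3 were higher, against 0.255% (*4930539E08Rik*, *Gm6402* and *Hsf2bp*). The study listed all of the 11 as differing except *Ppil1*, *Fgd2* and *Sik1*. Elsewhere on the segment 84 of 344 genes (24.4%) were called. This share and that of the members are not directly comparable, because no gene was left out by rule elsewhere. Of the 14 genes left out, the study listed *Decr2*, *Phf1*, *Nudt3*, *Ppard*, *Brpf3*, *Mtch1*, *Glo1*, *Rsph1*, *Pde9a* and *Cbs* as differing. The genes of the window without a position in the table are counted among the 344. With a Benjamini-Hochberg adjusted P of at most 0.05 over all genes, 8 members remained called, against 0.0225% outside the segment, and *Fgd2*, *Tbc1d22b* and *Sik1* were no longer called.

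The tag that the assay is designed to read for each called gene is printed here, since each level reported for these genes rests on tags of this kind. Each is the 27 bases from the last CATG of the GENCODE transcript, given 5′ to 3′ on the transcript's strand with the CATG in capitals and with GRCm38 coordinates.
Kifc5b: CATGtgggtcctctgcaaaatcagtca (chr17:26932431-26932457, + strand)
Lemd2: CATGtagcagtatgctcatttcggtct (chr17:27189736-27189762, - strand)
Uhrf1bp1: CATGctttttgtggagtgccccactga (chr17:27899612-27899638, + strand)
4930539E08Rik: CATGgcgctggatggttgtaagctgcc (chr17:28896568-28896594, - strand)
Ppil1: CATGgtggttgaaatcactgttgtggt (chr17:29250819-29250845, - strand)
Fgd2: CATGcaacagttgggtaggtagaggaa (chr17:29379392-29379418, + strand)
Tbc1d22b: CATGtctgaatttgtgtccagactaac (chr17:29605863-29605889, + strand)
Umodl1: CATGctaacaggtcctctactttgttg (chr17:31010432-31010458, + strand)
Sik1: CATGttaatgtgagagacgtatgccaa (chr17:31844326-31844352, - strand)
Hsf2bp: CATGgcctccttaattttcttctgtat (chr17:31944825-31944851, - strand)
All 10 tags lie in the annotated 3′ UTR, and no other GENCODE gene holds a tag within 2 mismatches of any of them. They are of the reference genome, which carries the b6 sequence. Whether cast alleles differ in these tags, and any effect of this on *cast/cast* counts, was not tested. The *Ppil1* tag reaches 16 bases past the RefSeq end of that gene. The authors aligned tags to RefSeq mRNA, so whether this tag was counted is not known. The transcripts of *Uhrf1bp1* and *Tbc1d22b* hold 39 and 7 CATG sites, and which of a transcript's sites were counted is not given in the sources used here. *Gm6402* had no matched GENCODE transcript, so its tag is not shown.

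**Figure D1:**
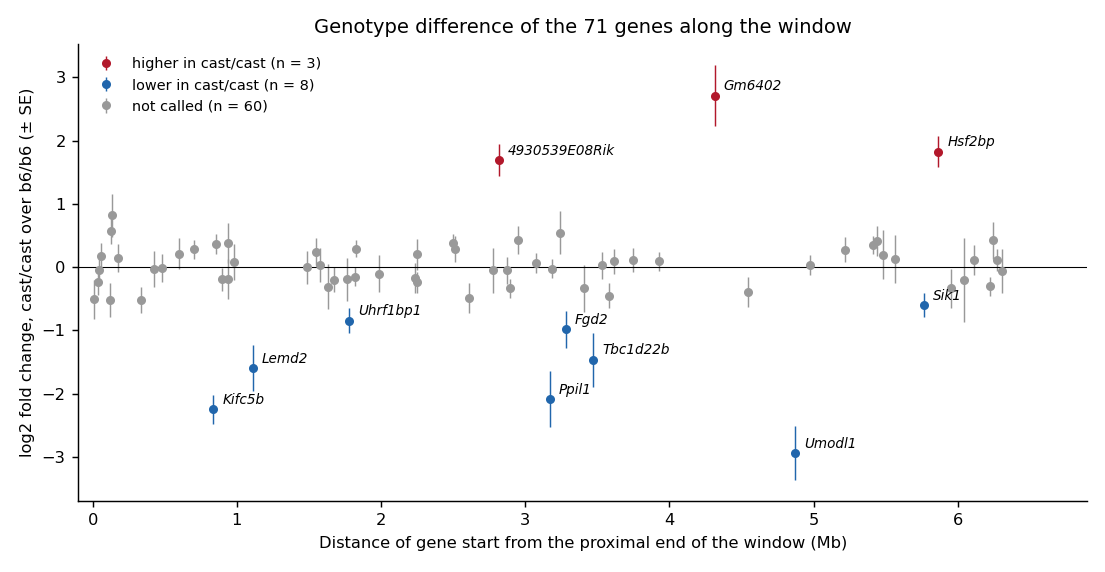
Log2 fold change of each of the 71 genes, *cast/cast* over *b6/b6* (vertical axis, with SE bars), against the distance of the gene start from the proximal end of the window in Mb (horizontal axis). The 8 genes lower and 3 genes higher in *cast/cast* mice are spread from 0.84 to 5.86 Mb among the 60 genes that were not called.

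The called genes did not form 1 block. Along the chromosome up to 10 members that were not called lay between successive called genes, the longest run being between *Uhrf1bp1* and *4930539E08Rik*. Only *Sik1* and *Hsf2bp*, at 5.76 and 5.86 Mb from the start of the window, followed each other directly in the order of members, and their differences had opposite directions. The plot along the window shows this order. The first 0.84 Mb held 13 members with no call, and the 7 members that start from 32 to 32.5 Mb held none either. Only members were counted here, so genes left out by rule are skipped. Among these the study listed *Decr2*, in the first 0.84 Mb, *Phf1*, directly after *Kifc5b*, and *Ppard* and *Brpf3*, in the longest run, as differing.

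The genes known from germ cells, cilia and microtubules had 6 measured members. Of these 1 rose (*Hsf2bp*), 2 fell (*Kifc5b* and *Lemd2*) and 3 were not called (*Ggnbp1*, *Tcp11* and *Dnahc8*). Their median log2 fold change was -0.25, beside -0.02 over all genes tested. *Lemd2* encodes a protein of the inner nuclear membrane and acts in many cell types, so the name of the list describes it poorly.

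*Kifc5b*, a minus-end directed kinesin motor of the kinesin-14 family (chr17:26917091-26932579, + strand), ranged from 9.79 to 34.7 normalized counts in *b6/b6* mice, with a median of 25.4. In *cast/cast* mice it ranged from 1.87 to 8.61, with a median of 4.14. The highest *cast/cast* value was thus under the lowest *b6/b6* value. The means were 24.3 ± 7.74 for *b6/b6* and 4.28 ± 1.75 for *cast/cast* mice (SD, n = 12 each), 5.68-fold lower in *cast/cast*, with a log2 fold change of -2.25 ± 0.23 (SE, limma P = 3.16e-10, adjusted P = 1.26e-07). The call held with any 1 mouse left out and in both ranges of study numbers that held mice of each genotype. Outside the segment 0 of 13320 genes (0.0%) separated the genotypes this completely, and among the 71 genes there were 2, *Kifc5b* and *Ppil1*.

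*Hsf2bp*, which binds BRCA2 during meiotic recombination (chr17:31944769-32034895, - strand), moved the other way. It ranged from 5.79 to 31.9 normalized counts (median 15.9) among *b6/b6* mice and from 24.8 to 102.3 (median 62.7) in *cast/cast* mice. In 11 of the 12 *cast/cast* mice the level was above that of every *b6/b6* mouse, and only *cast/cast* 10 fell within their range. The means of 16.6 ± 7.53 and 59.6 ± 20.5 differed 3.58-fold (log2 fold change 1.83 ± 0.25, P = 5.46e-08, adjusted P = 1.62e-05).

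*Lemd2* ranged from 18.8 to 60.9 normalized counts (median 33.0) in *b6/b6* mice. In *cast/cast* mice it ranged from 0.0 to 23.7 (median 11.7), and in 10 of them it was below every *b6/b6* mouse. The log2 fold change was -1.60 ± 0.36 (2.78-fold lower, P = 0.000153, adjusted P = 0.0302). The highest *b6/b6* values, 57.0 and 60.9, were those of mice 6 and 12, and without them the adjusted P was 0.133 with a log2 fold change of -1.45 ± 0.38.

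The genes of RNA processing and the ribosome had 11 measured members, of which *Ppil1* fell and 10 were not called, and their median log2 fold change was 0.12. *Ppil1* is a peptidyl-prolyl isomerase of the spliceosome. It was low in both genotypes, from 0.0 to 3.81 normalized counts in *cast/cast* mice (median 2.70, at most 4 tag hits) and from 5.19 to 85.9 in *b6/b6* mice (median 7.06). The genotypes did not overlap, but 10 *b6/b6* mice lay between 5.19 and 11.05 and the other two, *b6/b6* 6 and 12, at 68.2 and 85.9. With all mice the mean was 8.63-fold lower in *cast/cast* (log2 fold change -2.09 ± 0.44, P = 6.64e-05, adjusted P = 0.0137). Without those 2 mice the *b6/b6* mean was 7.33 ± 2.18 (n = 10) and the difference 3.34-fold (log2 fold change -1.54 ± 0.32, P = 5.87e-05, adjusted P = 0.0119).

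Those mice also carried the result for another spliceosome gene, *U2af1*, the small subunit of the factor that binds the 3′ splice site. In mice *b6/b6* 6 and 12 it reached 182.2 and 212.1 normalized counts, against 11.05 to 36.7 in the other 10 *b6/b6* mice and 19.0 to 50.5 in *cast/cast* mice. With all mice it was not called (log2 fold change 0.12 ± 0.38, P = 0.746), and its ratio of means, 1.5-fold lower in *cast/cast*, pointed the other way from its log2 fold change. Without the 2 mice it was called higher in *cast/cast*, 33.4 against 20.8 (log2 fold change 0.66 ± 0.20, P = 0.0026, adjusted P = 0.325). Its tag is also held by *AC102268.2* and *Gm10232*, so tags of these copies cannot be separated from it by sequence.

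The 2 most abundant genes of this list were not called over all mice. *Rpl10a*, a protein of the large ribosomal subunit and the most abundant member, averaged 10224 ± 3968 normalized counts for *b6/b6* and 11788 ± 5614 for *cast/cast* mice, and its log2 fold change was 0.20 ± 0.24 (P = 0.409). Its tag is shared with *Rpl10a-ps1* and *Gm13573*. *Srsf3*, a splicing factor rich in serine and arginine, averaged 5572 ± 1975 and 6992 ± 1476 (log2 fold change 0.43 ± 0.22, P = 0.0576). Among mice with study numbers up to 121 it was called (1.04 ± 0.31, P = 0.00445), and from 197 to 288 it was at 0.14 ± 0.30 (P = 0.643). Without *b6/b6* 6 and 12, the mice with its lowest *b6/b6* values, it was at 0.14 ± 0.13 (P = 0.29).

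The membrane traffic and small GTPase genes had 10 measured members, with 0 higher, 2 lower and 8 not called, and a median log2 fold change of -0.06. *Fgd2*, an exchange factor that activates CDC42, ranged from 7.08 to 58.9 normalized counts (median 16.7) among *b6/b6* mice and from 2.54 to 14.2 (median 10.6) in *cast/cast* mice. The ranges overlapped, with 3 *cast/cast* mice below every *b6/b6* mouse. The mean was 2.21-fold lower in *cast/cast* (log2 fold change -0.99 ± 0.29, P = 0.00204, adjusted P = 0.228). Without *b6/b6* 6 and 12, the mice with the highest 2 *b6/b6* values, the log2 fold change was -0.765 ± 0.265 (1.74-fold lower, P = 0.00795, adjusted P = 0.635).

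*Tbc1d22b*, which carries the TBC domain of Rab GTPase-activating proteins, ranged from 12.3 to 59.8 normalized counts (median 25.0) among *b6/b6* mice and from 0.0 to 26.4 (median 12.2) in *cast/cast* mice. In 6 *cast/cast* mice the level was under the lowest *b6/b6* value. The log2 fold change was -1.47 ± 0.42 (2.48-fold lower, P = 0.0017, adjusted P = 0.207). The highest 2 *b6/b6* values, 59.8 and 57.6, were those of mice 6 and 12. Without them the log2 fold change was -1.24 ± 0.43 (1.99-fold lower, P = 0.00836, adjusted P = 0.644). The gene overlaps *Tmem217* and the antisense *Tbc1d22bos*, and whether the authors' counting used strand is not given in the sources used here.

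*Itfg3* (RefSeq *Fam234a*), a membrane protein of the same list, passed the ratio threshold and missed that on P. In *b6/b6* mice it ranged from 658.0 to 1002 normalized counts in 10 mice and lay at 141.1 and 90.3 in mice 6 and 12. In *cast/cast* mice it ranged from 671.5 to 2009 (median 889.0), and mice 4, 5, 6 and 8 were the highest, from 1422 to 2009. The means of 709.8 ± 295 and 1133 ± 499.6 gave a log2 fold change of 0.82 ± 0.34 (1.60-fold, P = 0.0236, adjusted P = 0.581), and without *b6/b6* 6 and 12 it was 0.34 ± 0.19 (P = 0.0849).

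The kinases and phosphatases had 6 measured members, and *Sik1* alone was called, as lower, with a median log2 fold change of -0.34 over the list. *Sik1*, a salt-inducible kinase whose transcription responds to cAMP, ranged from 34.6 to 90.7 normalized counts (median 52.1) among *b6/b6* mice and from 16.1 to 56.4 (median 36.9) in *cast/cast* mice. The groups overlapped widely, with 4 *cast/cast* mice below every *b6/b6* mouse. The mean was 1.55-fold lower (log2 fold change -0.60 ± 0.20, P = 0.00511, adjusted P = 0.385), close to both thresholds. The call was lost without *cast/cast* 1 (P = 0.0103) and without *b6/b6* 3, 6, 7 or 9 (P from 0.0101 to 0.0115).

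*Mapk14*, the p38α stress kinase, averaged 318.1 ± 139.6 for *b6/b6* and 225.9 ± 103.1 for *cast/cast* mice (log2 fold change -0.49 ± 0.24, P = 0.0497, not called). Without *b6/b6* 6 and 12, the mice with its highest 2 *b6/b6* values, it was at -0.31 ± 0.23 (P = 0.184). From study numbers 197 to 288 it was at 0.02 ± 0.42 (P = 0.969). *Stk38*, a kinase of the NDR family, averaged 363.5 ± 59.0 and 296.1 ± 88.0 (-0.34 ± 0.15, P = 0.0298, not called), and in 8 *cast/cast* mice it was under the lowest *b6/b6* value.

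The Wnt, Notch and secreted signal genes had 4 measured members, of which *Umodl1* fell and 3 were not called, and their median log2 fold change was -0.36. *Umodl1*, a uromodulin-like membrane protein, ranged from 1.84 to 31.9 normalized counts (median 14.0) in *b6/b6* mice. In *cast/cast* mice it was at 0 in 7 of the 12, and its highest value was 4.72, with at most 5 tag hits. The level of 9 *cast/cast* mice was under the lowest *b6/b6* value. The log2 fold change of -2.94 ± 0.42 was the lowest among the 71 genes (P = 1.81e-07, adjusted P = 4.79e-05), and the ratio of means was 13.1-fold. At this depth 1 tag hit is worth about 1 normalized count, so the size of this ratio is uncertain.

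*Axin1*, a scaffold of the β-catenin destruction complex, averaged 186.6 ± 72.6 and 195.7 ± 33.2 normalized counts for *b6/b6* and *cast/cast* mice (log2 fold change 0.18 ± 0.21, P = 0.395). *Neurl1b*, an E3 ligase for Notch ligands, averaged 93.5 ± 35.9 and 63.1 ± 19.2 (-0.52 ± 0.21, P = 0.018, not called). It passed both thresholds when libraries were rescaled to the same total (-0.61 ± 0.19, P = 0.00378) and with any 1 of *cast/cast* 5 or 6 or *b6/b6* 3, 7 or 11 left out. Within study numbers up to 121 and from 197 to 288 it was at -0.25 ± 0.26 (P = 0.349) and -0.07 ± 0.44 (P = 0.877). *Notch3*, the Notch receptor of vascular smooth muscle and pericytes, was scattered in both genotypes, from 0.0 to 70.1 among *b6/b6* and from 0.0 to 42.6 in *cast/cast* mice. Its 95% interval of the log2 fold change, from -1.58 to 1.17, leaves a difference of more than 2-fold either way within the error.

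The chromatin and transcription list had 12 measured members, with 0 higher, 1 lower and 11 not called, and a median log2 fold change of -0.16. The called gene, *Uhrf1bp1*, was listed for its name, and its protein is known as a bridge-like lipid transfer protein rather than a chromatin factor. It ranged from 45.6 to 159.8 normalized counts (median 80.5) among *b6/b6* mice and from 29.5 to 60.5 (median 48.0) in *cast/cast* mice. The highest 2 *b6/b6* values were those of mice 12 and 6, and 4 *cast/cast* mice were under the lowest *b6/b6* value. The mean was 1.91-fold lower in *cast/cast* (log2 fold change -0.85 ± 0.20, P = 0.000188, adjusted P = 0.0361). Without *b6/b6* 6 and 12 the log2 fold change was -0.66 ± 0.17 (P = 0.000618, adjusted P = 0.103).

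*Akap8l*, a nuclear anchoring protein of the same list, averaged 1527 ± 842.4 for *b6/b6* and 2129 ± 1285 for *cast/cast* mice (log2 fold change 0.42 ± 0.29, P = 0.157).

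*4930539E08Rik* and *Gm6402*, which have no settled function, rose in *cast/cast* mice. RefSeq names the first *Bnip5* and lists it as protein coding. It ranged from 54.2 to 198.0 normalized counts (median 90.3) among *b6/b6* and from 172.2 to 707.4 (median 257.9) in *cast/cast* mice, and in 10 *cast/cast* mice it was above every *b6/b6* mouse. Within *cast/cast* the mice fell into 8 from 172.2 to 309.0 and 4, mice 4, 5, 6 and 8, from 527.9 to 707.4, the same 4 mice that were highest for *Itfg3*. In rank correlation with the other mice these 4 libraries lay at -3.96, -2.76, -7.57 and -1.83 scaled deviations from the median. Mouse *cast/cast* 1, with the lowest value of its genotype (172.2), lay at -2.4. The part of these deviations in the split was not tested. The mean was 3.47-fold higher (log2 fold change 1.69 ± 0.26, P = 5.09e-07, adjusted P = 0.000125). Without *b6/b6* 6 and 12, the mice with its lowest 2 *b6/b6* values, it was 3.19-fold higher (1.54 ± 0.26, P = 3.96e-06, adjusted P = 0.000908).

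*Gm6402* (chr17:30394825-30396180, - strand) lies inside *Btbd9*, on the same strand, so tags of the host transcript and of the pseudogene may not be separable. It ranged from 0.82 to 36.9 normalized counts (median 12.5) among *b6/b6* mice and from 18.1 to 132.9 (median 56.8) in *cast/cast* mice, with 9 *cast/cast* mice above every *b6/b6* mouse. The log2 fold change was 2.71 ± 0.49 (5.22-fold higher, P = 6.75e-06, adjusted P = 0.00153), the highest among the 71 genes. Mice *b6/b6* 6, 8 and 12 had 1 tag hit each, so the size of this change is uncertain. Without *b6/b6* 6 and 12 the log2 fold change was 2.275 ± 0.444 (4.41-fold higher, P = 2.81e-05, adjusted P = 0.00595).

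**Figure D2:**
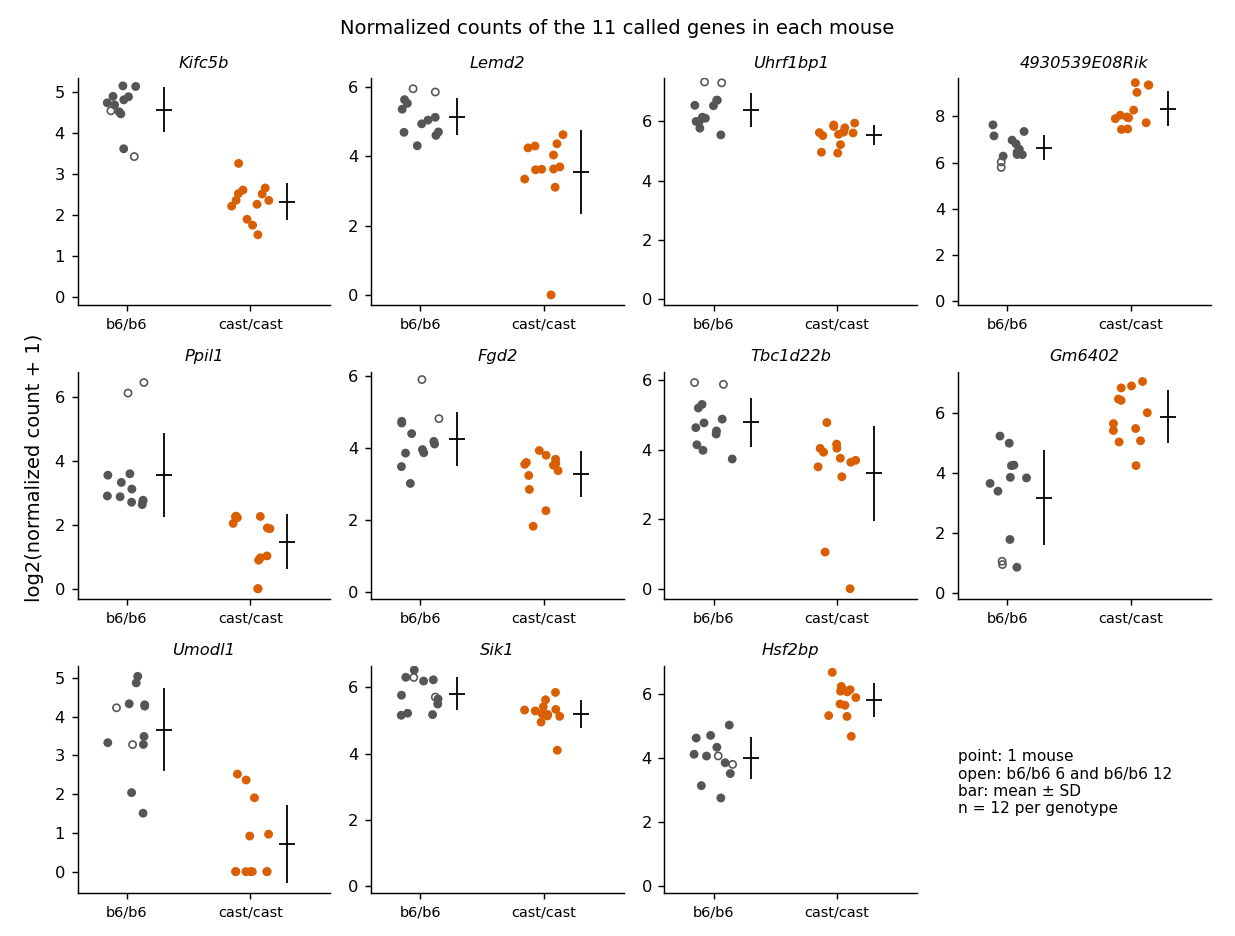
Log2(normalized count + 1) of the 11 called genes in each mouse, with b6/b6 on the left and cast/cast on the right of each panel. Points are mice, open points are b6/b6 6 and 12, and bars are the mean ± SD (n = 12). The genotypes separate completely for *Kifc5b* and *Ppil1*, and the open points are the highest of their genotype for *Ppil1*, *Uhrf1bp1*, *Lemd2*, *Fgd2* and *Tbc1d22b*.

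No member was called among the 8 measured genes of synapse, receptors and ion channels or among the 8 of mitochondria, transport and metabolism by limma over all mice, and their median log2 fold changes were 0.09 and 0.12. An unadjusted P under 0.05 was reached by *Rgs11*, *Lhfpl5* and *Anks1* in the first list and by *Cuta* in the second. Outside the segment 7.13% of genes reached such a P. Of these genes edgeR and DESeq2 each called *Rgs11*. *Itpr3*, an inositol trisphosphate receptor of the endoplasmic reticulum, averaged 37.7 ± 16.8 normalized counts for *b6/b6* and 41.0 ± 20.5 for *cast/cast* mice (log2 fold change 0.08 ± 0.28, P = 0.791). *Pacsin1*, an endocytosis protein of nerve terminals, averaged 1553 ± 671.9 and 1659 ± 740.6 (0.03 ± 0.27, P = 0.905). *Arhgdig*, which is abundant in brain, averaged 3052 ± 781.7 and 2410 ± 1172 (-0.52 ± 0.27, P = 0.0636), and 5 *cast/cast* mice were under the lowest *b6/b6* value.

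*Rgs11*, a regulator of G protein signalling, came closest to a call in these lists. It averaged 152.5 for *b6/b6* and 237.8 for *cast/cast* mice, 1.56-fold higher, and 7 *cast/cast* mice exceeded every *b6/b6* mouse, but P was 0.0122. It passed with edgeR (P = 0.00523), with DESeq2 (P = 0.00297), and with any 1 of *cast/cast* 2, 9 or 10 or *b6/b6* 1 or 4 left out. *Lhfpl5*, a subunit of the hair cell transduction channel complex, had a log2 fold change of 0.38 (P = 0.0114) and a ratio under the threshold. It was called among study numbers up to 121 (1.56-fold, P = 0.00578). Its lowest 2 *b6/b6* values were those of mice 6 and 12, and without them it was not called.

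Among the metabolic genes, *Abcg1*, an exporter of cholesterol to lipoproteins, averaged 379.4 ± 69.4 and 395.7 ± 105.3 for *b6/b6* and *cast/cast* mice (log2 fold change 0.03 ± 0.16, with a 95% interval from -0.30 to 0.36). *Cuta* averaged 1401 ± 490.4 and 1767 ± 432.9 (0.37 ± 0.16, P = 0.0332). It was called among study numbers up to 121 (0.75 ± 0.22, P = 0.004) but not from 197 to 288 (0.07 ± 0.30). Without *b6/b6* 6 and 12, the mice with its lowest *b6/b6* values, it was at 0.25 ± 0.15 (P = 0.124). *Ndufv3*, a subunit of respiratory complex I, averaged 902.1 ± 605.6 and 1120 ± 417.1 (0.41 ± 0.24, P = 0.1). It was called with *b6/b6* 4 left out (0.57, P = 0.00911), whose value was the highest, at 2652, and among study numbers up to 121 (1.0 ± 0.25, P = 0.00127), but not from 197 to 288 (0.16 ± 0.42). *Nme4*, a mitochondrial nucleoside diphosphate kinase, averaged 10.5 ± 6.47 and 6.47 ± 2.49, 1.63-fold lower in *cast/cast*, with P = 0.103.

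The 60 genes that were not called had log2 fold changes from -0.52 to 0.82, with 29 below and 31 above 0. Their median absolute log2 fold change was 0.20, beside 0.19 over all genes outside the segment. For 49 of the 60 the 95% interval lay within 1 log2 unit of 0 on both sides. An unadjusted P under 0.05 was reached by 21 of the 71 genes (29.6%), against 7.13% outside the segment, and by 10 of those not called, 6 of them higher and 4 lower in *cast/cast*. *Glp1r* and *Clps*, which also map to this chromosome, are not in the table of tested genes and were not analysed here.

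Calls were also counted by level, among members only. The genes left out by rule are not in these counts. Among them the study listed *Mtch1*, *Glo1*, *Nudt3* and *Brpf3* as differing, each with a mean over 500 in at least 1 genotype. Of the 24 members with a mean under 50 normalized counts, 9 (37.5%) were called, against 1.0% of such genes outside the segment. From 50 to 500 there were 2 of 28 (7.14%, against 0.787%), namely *Uhrf1bp1* and *4930539E08Rik*. Of the 19 members at 500 or more, 0 were called by limma over all 24 mice, against 0.283% outside, although *Itfg3* exceeded the ratio threshold among them, and 16 of the 19 had a 95% interval within 1 log2 unit of 0. An unadjusted P under 0.05 was reached by 3 of these 19, *Itfg3*, *Cuta* and *Lhfpl5*, and none was called by edgeR or DESeq2. Outside the segment 7.13% of genes of all levels reached such a P, and the share at this level alone was not counted. In subsets of the mice limma did call some of them, namely *Itfg3*, *Cuta*, *Lhfpl5*, *Ndufv3* and *Srsf3* among study numbers up to 121 and *Ndufv3* without *b6/b6* 4, and it called *Itfg3* with study number as a covariate. By strand, 5 of 39 members on the + strand (12.8%) and 6 of 32 on the - strand (18.8%) were called. The share was 15.5% over all members and 0.713% over all genes outside the segment. The 3 higher genes were all on the - strand. Shares by strand outside the segment were not counted, and a difference between strands was not tested.

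**Figure D3:**
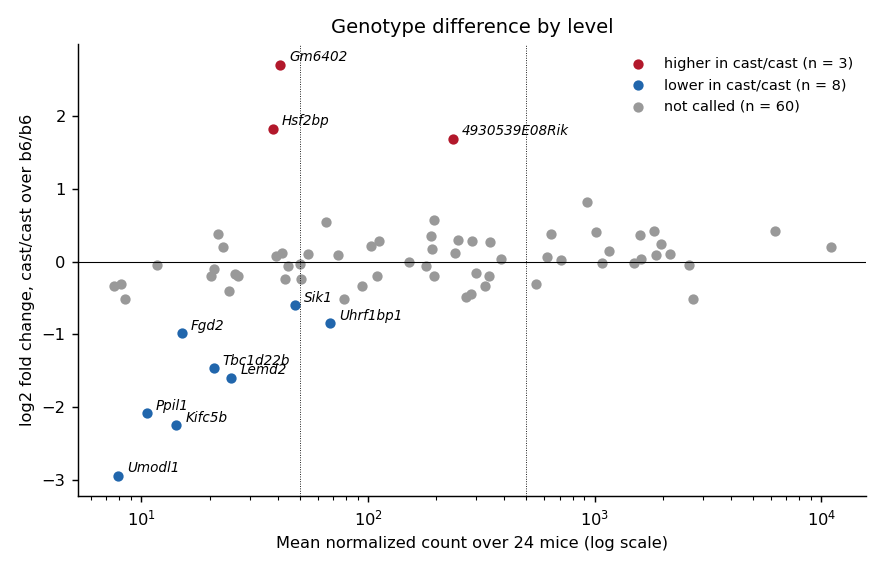
Log2 fold change of the 71 genes, *cast/cast* over *b6/b6* (vertical axis), against the mean normalized count over 24 mice (horizontal axis, log scale), with dotted lines at 50 and 500. Called genes lie between 7.89 and 237.2 normalized counts, and none of the 19 genes at 500 or more is coloured as called. Genes of the window left out by rule are not plotted.

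Some libraries stood apart from the rest. By the median rank correlation with the other mice, *cast/cast* 4 and 6 and *b6/b6* 6 and 12 lay more than 3 scaled deviations below the median, and all 4 had study numbers up to 121. Mice *b6/b6* 6 and 12 held the highest or the lowest 2 *b6/b6* values in 31 of the 71 genes (43.7%) and in 40.3% of genes outside the segment. They also had the highest sums of the blood genes measured, 4999 and 1704 normalized counts, against 104.8 to 782.2 over the *cast/cast* mice and 121.4 to 1044 over the other *b6/b6* mice, while 3 of the 5 listed blood genes were in the table. The part of these libraries in the gene differences was not tested beyond leaving them out. Without both, 12 members were called (16.9%, against 0.225% outside), of which 10 were among the 11, *Sik1* was lost (P = 0.011), and *U2af1* and *Nme4* were gained. Of the 16 hypothalamic markers 15 were in the table and none was called, with sums from 6846 to 37432 in *cast/cast* and from 13581 to 31506 in *b6/b6* mice. Among the marker lists of other brain regions and cell types only *Tcf7l2*, of the thalamus list, was called, as lower, and the summed thalamus list ranged from 2688 to 8427 in *cast/cast* against 2767 to 8139 in *b6/b6* mice. Libraries held 7754202 to 13082873 tag hits. In such bulk tissue fewer cells of a type and less RNA per cell cannot be told apart.

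The study numbers of the mice were spread unevenly over the genotypes. Up to 121 there were 7 *cast/cast* and 5 *b6/b6* mice, from 197 to 288 there were 5 and 2, and above 288 there were 0 and 5. Among mice up to 121, 15 members were called (21.1%, against 2.69% outside), 10 of them among the 11, and *Fgd2* was not (-1.35 ± 0.49, P = 0.0147). The 5 added genes were all higher in *cast/cast* mice, *Ndufv3* 2.11-fold (P = 0.00127), *Cuta* 1.70-fold (P = 0.004), *Srsf3* 1.86-fold (P = 0.00445), *Lhfpl5* 1.56-fold (P = 0.00578) and *Itfg3* 2.45-fold (P = 0.00869). The balance there was 8 higher and 7 lower, against 3 and 8 over all mice, and none of the 5 was called from 197 to 288. The 5 *b6/b6* mice up to 121 include *b6/b6* 6 and 12, with the lowest 2 *b6/b6* values of *Cuta*, *Itfg3*, *Lhfpl5* and *Srsf3*. Without these 2 mice, over all study numbers, none of the 5 added genes was called. *Itfg3* was then at 0.34 ± 0.19, *Srsf3* at 0.14 ± 0.13, *Cuta* at 0.25 ± 0.15 and *Ndufv3* at 0.31 ± 0.25. Among the 7 mice from 197 to 288, 3 members were called (4.23%, against 0.0526% outside), *Kifc5b* (-2.43 ± 0.54), *4930539E08Rik* (1.93 ± 0.45) and *Hsf2bp* (1.24 ± 0.35).

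All 11 called genes had the direction of their difference in both ranges, but with 2 *b6/b6* mice the second range gave wide errors. There *Ppil1* was at -1.5 ± 0.67, *Umodl1* at -2.24 ± 1.03, *Gm6402* at 2.84 ± 1.06, *Uhrf1bp1* at -0.81 ± 0.34 and *Fgd2* at -0.98 ± 0.41 on the log2 scale. *Lemd2*, *Tbc1d22b* and *Sik1* were at -0.63 ± 0.50, -0.62 ± 1.11 and -0.36 ± 0.40, and for *Tbc1d22b* the mean normalized counts there were 13.5 for *b6/b6* and 13.4 for *cast/cast* mice. With study number as a covariate over all 24 mice, all 11 remained called and *Itfg3* was added (1.04 ± 0.31, P = 0.00283).

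The count of members changed little with the choice of test. It was 11 with pseudocounts of 0.5 and 5 (0.706% and 0.721% outside the segment), 11 with P alone (1.22%), and 12 with libraries rescaled to the same total (0.886%, *Neurl1b* added), with edgeR (2.04%, *Rgs11* added) and with DESeq2 (2.02%, *Rgs11* added). Study number as a covariate gave 12 (1.44%). A minimum mean of 20 left 63 members, of which 7 were called (0.635%), as *Kifc5b*, *Ppil1*, *Fgd2* and *Umodl1* fell below it. Without the 4 libraries that stood furthest apart 13 were called (0.563%), and without the 9 more than 1.5 scaled deviations below the median 13 as well (2.24%). *Srpk1*, a kinase of splicing factors, and *U2af1* were the genes added in both.

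**Figure D4:**
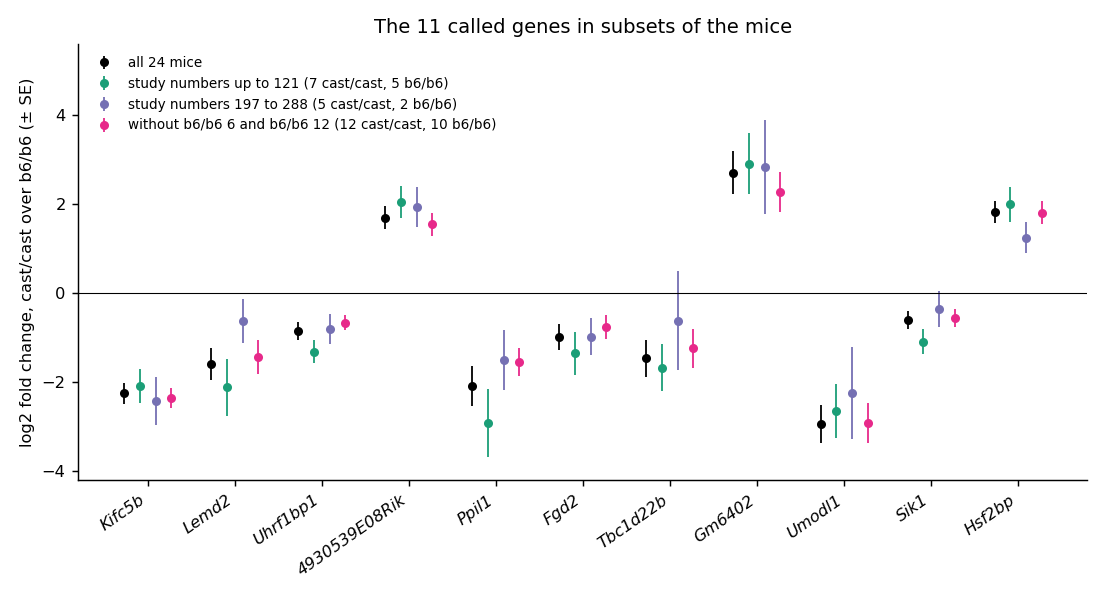
Log2 fold change with SE of the 11 called genes (horizontal axis) in all 24 mice, in the 2 ranges of study numbers that hold both genotypes, and without b6/b6 6 and 12. Each gene keeps its direction in each subset, and *Lemd2*, *Ppil1* and *Tbc1d22b* vary most in size between the ranges of study numbers.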

How the data were processed

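SAGE-Seq libraries of 27 bp tags were made from hypothalamus. The authors aligned tags to RefSeq mRNA and GRCm38, which carries the b6 sequence, with modified SOLiD SAGE Analysis Software, (any effect of this on counts of cast transcripts was not tested) and deposited a signal per gene, tag hits divided by the DESeq size factor. All values (100%, tolerance 0.05 tag hits) were whole multiples of a library's step, which gave tag hits. Normalized counts were tested over 13998 genes with limma 3.58.1 (trend) after adding 1 and taking log2, comparing the genotypes with no covariate. All fold changes on the log2 scale are differences between genotype means of this transformed value, and adding 1 shrinks them for low genes. Changes given as n-fold are ratios of mean normalized counts. These 2 measures can differ in size and, as for *U2af1*, in direction. Deposited comparison columns (fold changes, P) were not used. Positions came from the table, gene spans from RefSeq (65 members by symbol, 6 by synonym) and tags from GENCODE M21. Named genes were all called members, those past 1 threshold, the 2 most abundant per list and 8 listed genes, of which a few results are not reported here. Members and lists were chosen with earlier results of these data known. Alternatives were pseudocounts of 0.5 and 5, other filters, rescaling, edgeR 4.0.16, DESeq2 1.42.0, adjusted P, P alone, study number and subsets of mice. Scripts were tested on simulated data. R 4.3.3 and Python 3.11.15 were used.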

Additional observations from a re-analysis of the deposited data

How the results depend on the processing

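No paired analysis was possible because the labels give the genotypes no shared replicate numbers. The 11 calls were the same genes with pseudocounts of 0.5 and 5, with no filter on low values, and with P alone. With a minimum mean of 20, 7 members were called and 7 of the 11 called genes were tested, since *Fgd2*, *Kifc5b*, *Ppil1* and *Umodl1* were below it. Study numbers 197 to 288 gave 3 members, with 7 mice. Outside the segment the count of 95 genes became 272 with edgeR, 269 with DESeq2, 3 with adjusted P, 163 with P alone, 192 with study number as a covariate, 358 for study numbers up to 121 and 7 for 197 to 288. Chosen after seeing the data were the fits without b6/b6 6 and 12 (30 outside) and without the libraries more than 1.5 scaled deviations below the median (299 outside, 13 members). Leaving out 1 mouse gave 10 to 13 members, 11 called genes with the same direction throughout, and 39 to 144 genes outside, where *cast/cast* 1 (52), *b6/b6* 1 (144), 6 (47) and 12 (39) moved the count most. Rescaling shifted the median log2 fold change of all genes from -0.02 to -0.11, gave 17 higher and 101 lower genes outside against 34 and 61, and turned the sign of *Itpr3*, *Pacsin1* and *Abcg1*, none of which was called. edgeR gave 29 higher and 243 lower genes outside, and DESeq2 gave 45 and 224. The cause of these changes was not tested. No called member changed direction under any alternative in which it was tested. Genes near 1 tag hit per library, such as *Umodl1* and *Ppil1* in *cast/cast* mice, are limited by depth.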
